A study of Homo sapiens with 9 samples.

Results

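The genes described here are 117 protein-coding genes of the human pancreatic cancer line SUIT2 whose transcripts were near their control level after 6 h with interferon beta and at most 0.57 of it after 24 h. They were picked from these data by levels in CPM, the unit in which a gene's count is divided by its library's total and brought to a common size, here scaled by the trimmed mean of M-values (TMM) method. A member had a control mean of at least 5 CPM, a 24 h to control ratio of at most 0.57, a 6 h to control ratio from 0.8 to 1.25, and its highest 24 h library below its lowest control library. Of 16964 genes tested, 12782 of them protein-coding, 122 met the rule. TNC, TMEM158, FOSL1, PLK1 and CDC20 were set aside, which left 117. Since both contrasts with control chose the members, their values in them describe the selection and carry no test, and the gap between 24 h and 6 h is likewise fixed by it.

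The study asked how type I interferon changes transcription in SUIT2 cells. It compared cells given 100 U/mL human IFNβ for 24 h, cells given the same dose for 6 h, and control-treated cells, with 3 RNA-seq libraries in each group, 9 in all. The labels give the controls no time and no vehicle, so time in culture and the interferon treatment cannot be told apart. They do not say that the libraries of a group came from separate cultures, so the spread between libraries may be technical. All libraries come from 1 established cell line grown in 6-well plates.

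Interferon beta binds its receptor and activates a complex of transcription factors, which within hours switches on antiviral genes. Interferon also slows the growth of many tumour cells. Epithelial cells hold on to the basement membrane through hemidesmosomes, in which the integrin of the alpha-6 and beta-4 chains joins laminin-332 outside the cell to plectin and keratin filaments inside. Actin filaments, caveolae (small pits of the plasma membrane) and microtubules carry force and shape. Entry into mitosis is driven by cyclin B with its kinase and ended by ubiquitin ligases that mark mitotic proteins for destruction.

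Library totals were 25270387 to 40384407 estimated counts at 24 h, 16799278 to 37420457 at 6 h and 15101734 to 19632742 in control. All 8 ductal epithelial markers, those of the labelled cell type, were tested, with a summed level of 5428 to 5554 CPM at 24 h, 5543 to 5848 CPM at 6 h and 4903 to 4964 CPM in control. KRT8, KRT19 and KRT18 made up most of that sum, and single markers differed in direction. KRT7 had a mean of 125.1 CPM at 24 h and 211.4 CPM in control, and EPCAM 208.2 and 140.5 CPM. Of 13 leukocyte markers 4 were tested, and 5 (PTPRC, CD3E, CD3D, CD2 and MS4A1) were at 0 in every library. The list's sum, nearly all of it LYZ and CD68, was 405.3 to 426.1 CPM at 24 h, 372.3 to 389 CPM at 6 h and 258.2 to 269.9 CPM in control. Fibroblast markers summed to at most 4.74 CPM at 24 h, 6.23 CPM at 6 h and 3.357 CPM in control, and endothelial markers to at most 1.926, 2.336 and 2.398 CPM. Acinar and islet markers reached at most 0.63 CPM. The part of these markers in the results was not tested, and no member is among them. The first 24 h library had a ribosomal RNA share of 0.0122% of counts, against at most 0.001% in the other 8. That share leaves out mitochondrial ribosomal RNA such as MT-RNR2, which is far more abundant in these libraries.

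All 117 members passed as lower at 24 h than in control, where 25.3% of all genes tested passed in that direction (edgeR quasi-likelihood test, Benjamini-Hochberg adjusted p under 0.05), a count that the rule forces. Likewise all 117 passed as lower at 24 h than at 6 h, against 30.6% of all genes tested. At 6 h against control, 26 members passed as lower and 16 as higher, against 15.4% and 17.5% of all genes, and 75 did not pass. In both directions together the tests called 50% of all genes at 24 h, 32.9% at 6 h and 57.2% between the times. The share of 24 h calls that were lower was 50.5% with TMM, 35.9% with library sizes alone and 3.61% in the authors' deposited normalized table. At 6 h that share was 46.8% with TMM, 78.8% with library sizes alone and 11.6% in the deposited table, and between the times it was 53.4%, 23.1% and 16.7% in the same order of scalings. The median gene lay 0.37 higher at 24 h on the log2 scale in the deposited table and 0.08 higher with library sizes alone. All 117 members remained lower at 24 h, with no overlap between 24 h and control libraries, under each of these scalings. The rule had picked them as well below control in these same libraries, so that outcome was close to fixed and is no test. Fewer genes met the rule's limits with the deposited values, as given in the last section. Their median 24 h to control ratio was 0.492 with TMM, 0.520 with library sizes alone and 0.666 in the deposited table.

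Together the members summed to 14632, 14407 and 14607 CPM in the 24 h libraries, 30701, 30762 and 30810 CPM in the 6 h libraries and 30298, 30252 and 31204 CPM in the control libraries. The 24 h libraries stood apart from the other 6, which lay close to each other. That order follows from the rule that picked the members. In bulk RNA, fewer cells that express a gene and less RNA per cell cannot be told apart. Member by member, the 24 h to control ratio ran from 0.204 to 0.569, with quartiles of 0.432, 0.492 and 0.528, beside a median of 1.002 over all genes tested. Only 3 members were at or below 0.25, 9 more lay up to 0.33, 52 from there to 0.5 and 53 above 0.5. At 6 h the ratio to control ran from 0.802 to 1.184 around a median of 0.982, with the 6 h mean below control for 64 members and above it for 53. For 55 members the 6 h libraries overlapped the controls, for 35 they all lay below and for 27 all above. These 3 counts were not made over all genes tested, so they cannot be read as a trait of the members. The spread between libraries was small, with median coefficients of variation of 3.17% at 24 h, 3.85% at 6 h and 3.3% in control.

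**Figure D1:**
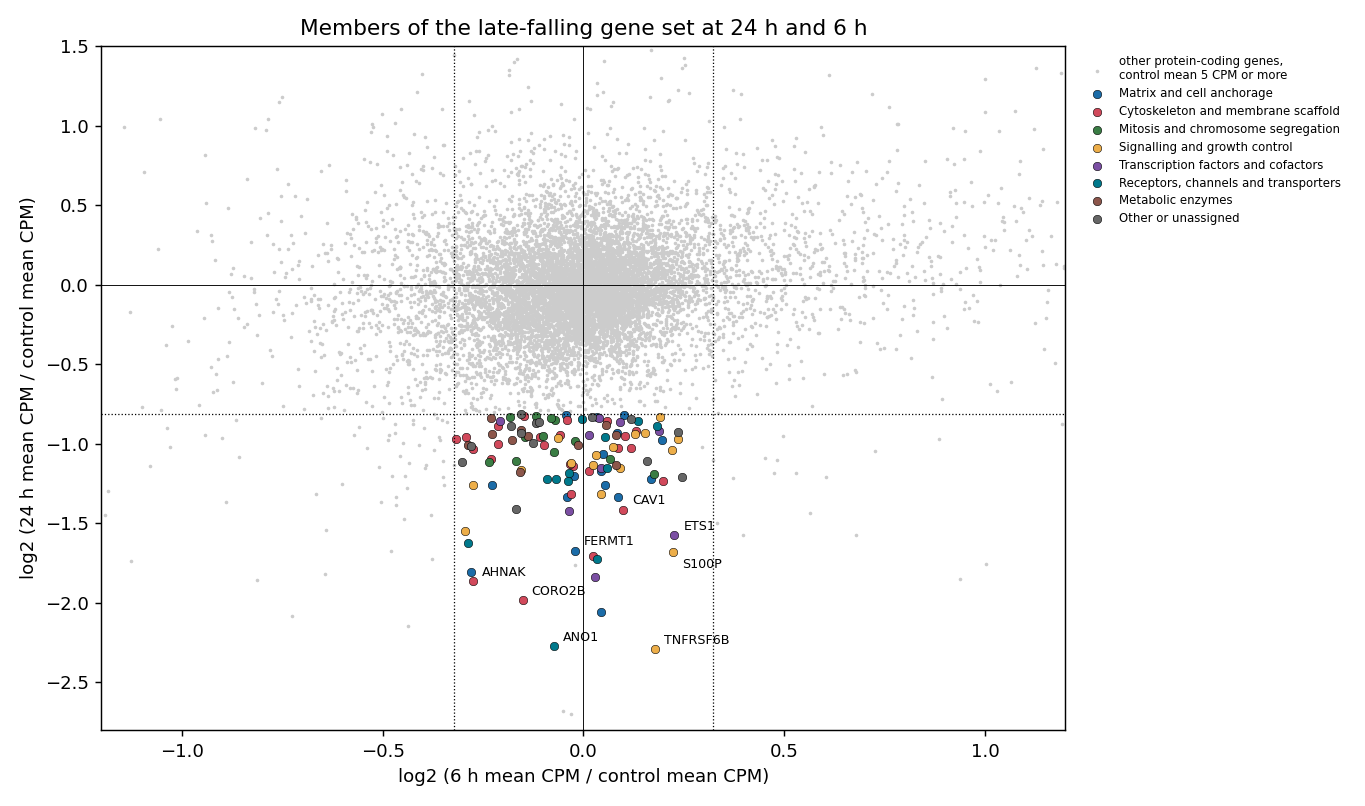
Log2 ratio of group mean CPM to control, 6 h across and 24 h up, for protein-coding genes with a control mean of at least 5 CPM (10205 genes, of which 231 lie beyond the axes). Coloured points are the 117 members by role, dotted lines mark the rule's limits at 0.57, 0.8 and 1.25, and grey points inside the limits are the genes set aside. Members lie in a narrow band below the bulk of genes, with TNFRSF6B and ANO1 lowest.

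At the limits of the rule, DGCR6 (0.569), SUSD5 (0.568) and CD109 (0.568) were the last genes inside the 24 h ratio, and EHD2 (0.572), ZC3H8 (0.572) and DVL1 (0.574) the first outside. At the low edge of the 6 h window SYNE1 (0.802), C12orf56 (0.811) and FAM83A (0.815) were inside, and MAP3K20 (0.799), SLC7A5 (0.790) and AKAP12 (0.787) were outside. At its high edge FAM72D (1.184), IGFBP1 (1.177) and MOSPD1 (1.177) were inside, and ADAM19 (1.251), SOCS3 (1.259) and IER5L (1.293) were outside. KLF14 (5.04 CPM), ABI3BP (5.09 CPM) and DGCR6 (6.56 CPM) had the lowest control means inside, and CDHR2 (4.64 CPM), DHRS9 (4.55 CPM) and RAPGEF3 (4.50 CPM) lay just under the limit. Of the 198 protein-coding genes at or below a 24 h ratio of 0.57, which are 1.94% of the 10205 with enough control signal, 59 lay under the 6 h window and 17 over it.

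The members were sorted by hand, after their values had been seen, into 8 roles. Matrix and cell anchorage held 17 members, with a median 24 h to control ratio of 0.435 and a median 6 h to control ratio of 1.03. Cytoskeleton and membrane scaffold held 25, with medians of 0.492 at 24 h and 0.973 at 6 h. Mitosis and chromosome segregation held 12, with medians of 0.511 and 0.939. Signalling and growth control held 17, with medians of 0.459 and 1.05. Receptors, channels and transporters held 12, with medians of 0.434 and 0.987, and transcription factors and cofactors 9, with medians of 0.519 and 1.03. Metabolic enzymes held 11, with medians of 0.517 and 0.898, and 14 genes had another role or none that could be assigned.

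**Figure D2:**
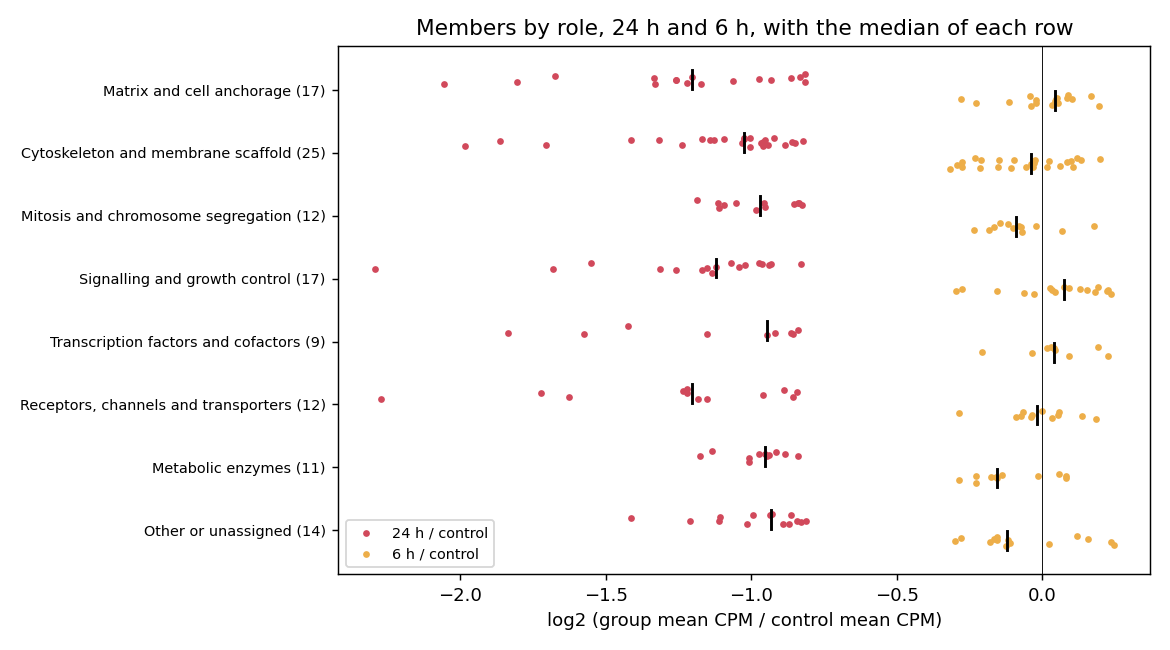
Log2 ratio of group mean CPM to control for each member (points), 24 h in red and 6 h in yellow, by role with the number of members in brackets. Black lines are medians. Every role has its 24 h points left of its 6 h points, which the rule forces, and the lowest 24 h values are in the signalling, receptor, matrix and cytoskeleton rows.

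Laminin-332, the hemidesmosome's anchor in the basement membrane, is a trimer that holds an alpha-3 and a beta-3 chain. LAMA3, the alpha-3 chain, had 40.04, 36.1 and 37.5 CPM at 24 h, 85.9, 84.0 and 87.3 CPM at 6 h, and 89.3, 86.5 and 85.6 CPM in control. Only its 24 h libraries stood apart, at 0.435 of control, and its 6 h libraries overlapped the controls. LAMB3, the beta-3 chain, is no member because its 6 h ratio of 0.770 lies below the window. It had 11.2, 11.3 and 12.2 CPM at 24 h, 30.1, 30.3 and 27.7 CPM at 6 h, and 38.0, 38.1 and 38.3 CPM in control, a log2 change of -1.72 ± 0.06 (SE) at 24 h (edgeR adjusted p = 9.84e-13) and of -0.39 at 6 h (edgeR adjusted p = 3.06e-05). Both chains were thus lower at 24 h, and LAMB3 also passed as lower at 6 h, with every 6 h library below the controls.

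Inside the cell, ITGB4, the integrin beta-4 chain, had 811, 775 and 817 CPM at 24 h, 1742, 1750 and 1702 CPM at 6 h, and 1636, 1647 and 1736 CPM in control. PLEC, which encodes plectin, the linker from that integrin to keratin filaments, had 1158, 1097 and 1147 CPM at 24 h, 2810, 2785 and 2863 CPM at 6 h, and 2589, 2653 and 2904 CPM in control. For both genes the 6 h libraries overlapped the controls and the 24 h libraries were well below. Other hemidesmosome genes, picked after values were seen, are outside the set. COL17A1, a transmembrane collagen of the same structure, had 600, 594 and 610 CPM at 24 h, 1316, 1312 and 1322 CPM at 6 h, and 890, 904 and 912 CPM in control. It was lower than control at 24 h by a log2 change of -0.58 ± 0.02 (edgeR adjusted p = 7.1e-12) and higher at 6 h by 0.55 (edgeR adjusted p = 1.37e-11). ITGA6, the alpha-6 partner of ITGB4, had a 24 h ratio of 0.733 and a 6 h ratio of 1.249, with log2 changes of -0.45 and 0.32, and both passed. DST, which encodes a plakin linker, had 195, 189 and 182 CPM at 24 h, 239.7, 215 and 280.4 CPM at 6 h, and 259, 259 and 302 CPM in control. It was lower at 24 h by a log2 change of -0.53 ± 0.08 (edgeR adjusted p = 3.04e-05), and its 6 h change of -0.15 did not pass (edgeR adjusted p = 0.152). In the deposited table the 24 h changes of COL17A1 (-0.14), ITGA6 (-0.01) and DST (-0.09) did not pass, against the median gene at 0.37.

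Because AP-1 sites are well described in laminin and protease promoters, the 250 bases before the RefSeq start of LAMA3 are shown (RefSeq, GRCh38.p14, 5′ to 3′ on the gene's strand), with matches to the AP-1 motif TGANTCA, searched on both strands, in capitals.
LAMA3 (chr18:23872770-23873019, plus strand): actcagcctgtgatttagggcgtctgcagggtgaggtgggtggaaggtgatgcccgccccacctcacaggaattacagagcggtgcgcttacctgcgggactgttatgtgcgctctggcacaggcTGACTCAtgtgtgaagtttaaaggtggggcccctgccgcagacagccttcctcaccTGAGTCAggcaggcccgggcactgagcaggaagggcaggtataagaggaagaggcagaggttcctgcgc
The LAMA3 window holds 2 matches, whose last bases lie 119 and 63 bases before the start. Promoter sequences were matched for 92 of the 117 members, over a window from 250 bases before to 50 after the start. Of those 92, 5 hold the AP-1 motif, a share of 5.43% (exact binomial interval 1.79 to 12.2%), beside 4.34% of tested protein-coding genes and 7.71% of all promoters. In the 100 bases around the start 0 of 92 hold it, beside 1.37% of tested protein-coding genes. A match is not evidence of binding.

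Further members of the anchorage group bind matrix or process it. FERMT1, a kindlin that activates integrins in epithelia, had 105, 106 and 101 CPM at 24 h, 330, 317 and 329 CPM at 6 h, and 322, 327 and 341 CPM in control, a 24 h ratio of 0.314 with 6 h libraries that overlapped control. FERMT2, the kindlin outside the set, had a 24 h ratio of 0.836 (log2 change -0.26, edgeR adjusted p = 0.000484), and stood at 0.17, not called, in the deposited table. THBS1, thrombospondin 1, a matrix glycoprotein, had 75.01, 70.8 and 74.4 CPM at 24 h, 150, 146 and 154 CPM at 6 h, and 170, 177 and 180 CPM in control, so its 6 h libraries already lay below every control. PLAUR, the urokinase receptor, had 8.27, 7.89 and 8.99 CPM at 24 h, 21.1, 21.9 and 22.8 CPM at 6 h, and 19.1, 19.3 and 20.2 CPM in control. It shows the opposite order at 6 h, with every library above control. PLAU, the urokinase that PLAUR binds, is outside the set, since its 6 h ratio was 0.641. It had 142, 146 and 150 CPM at 24 h, 323, 336 and 330 CPM at 6 h, and 513, 505 and 527 CPM in control, a log2 change of -1.82 ± 0.03 at 24 h (edgeR adjusted p = 4.54e-16). Receptor and ligand were thus both lower at 24 h and on opposite sides of control at 6 h.

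The collagen VI chains COL6A1 and COL6A2 lie 93.06 kb apart on chromosome 21 (hg38) and had 24 h ratios of 0.524 and 0.444. COL6A2 had 7.95, 8.15 and 8.55 CPM at 24 h, 19.6, 19.4 and 18.2 CPM at 6 h, and 18.0, 19.7 and 17.7 CPM in control. ANTXR2, a collagen-binding receptor, had a ratio of 0.397, and LOXL4, a lysyl oxidase that crosslinks collagen, one of 0.549. The gene CPM (carboxypeptidase M, a membrane-anchored enzyme and not the unit) had a ratio of 0.287. It overlaps MDM2 on the opposite strand, whose 24 h ratio was 1.08, and no source used here says whether the counting used strand.

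**Figure D3:**
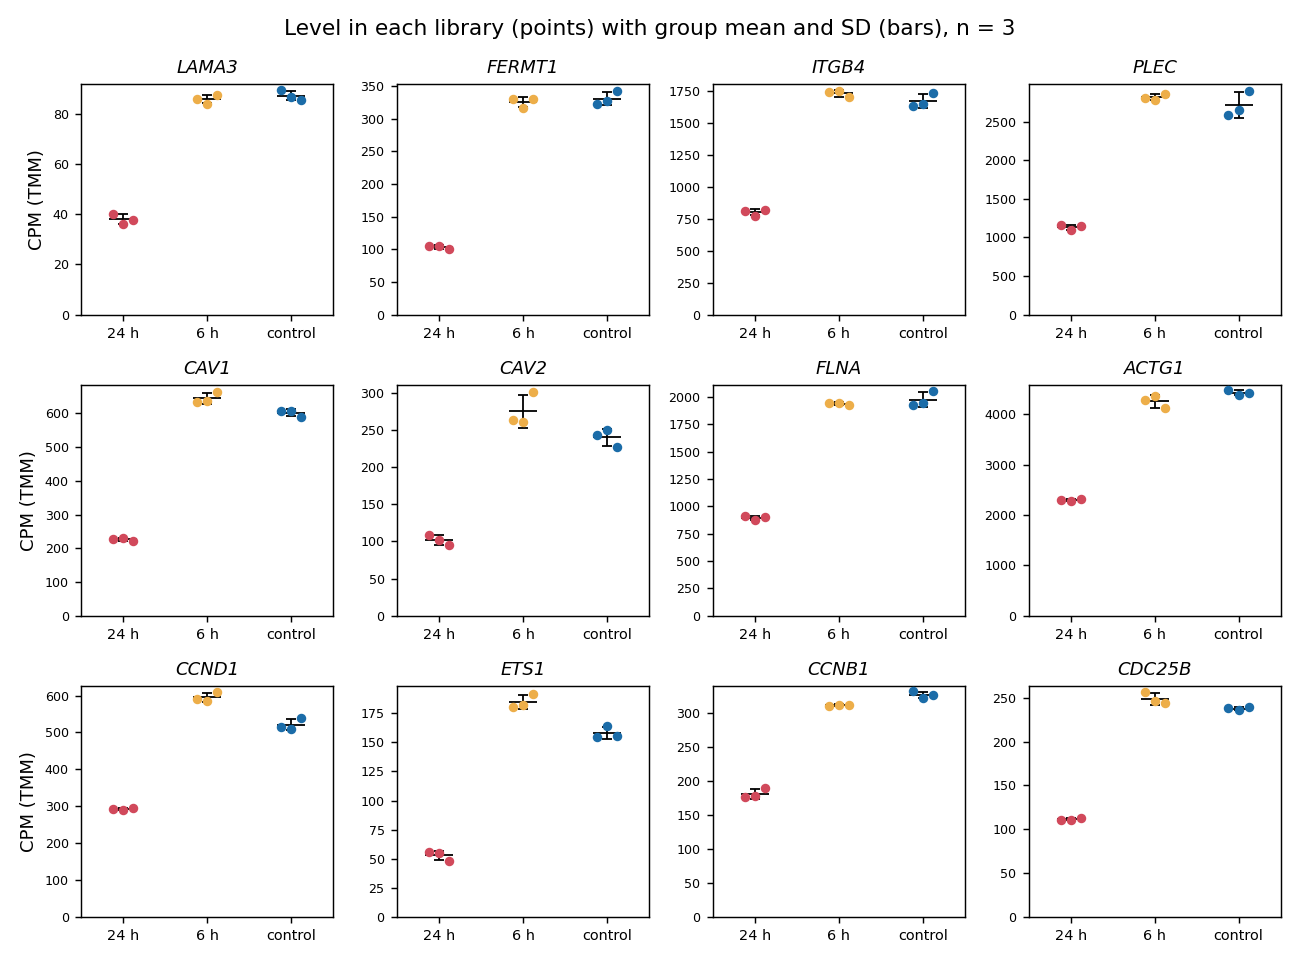
TMM-scaled CPM in each library (points) with the group mean and SD (black, n = 3) for 12 members, groups in the order 24 h, 6 h, control, each axis starting at 0. The 24 h points sit below every other point in all 12 panels, and the 6 h points sit above every control point for CAV1, CAV2, CCND1, ETS1 and CDC25B.

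Of the cytoskeletal members, ACTG1, the cytoplasmic gamma-actin, had 2305, 2285 and 2325 CPM at 24 h, 4287, 4365 and 4125 CPM at 6 h, and 4479, 4387 and 4429 CPM in control. FLNA, filamin A, which crosslinks actin, had 911, 878 and 900 CPM at 24 h, 1944, 1949 and 1924 CPM at 6 h, and 1923, 1950 and 2053 CPM in control. Both were near 0.5 of control at 24 h, FLNA with 6 h libraries among the controls and ACTG1 with 6 h libraries below them by a small margin. TPM4, a tropomyosin that winds along actin, had 137, 142 and 139 CPM at 24 h, 263, 261 and 267 CPM at 6 h, and 251, 251 and 256 CPM in control. Outside the set, ACTB, the beta-actin gene, had a 24 h ratio of 0.608 and a 6 h ratio of 1.066, with a 24 h log2 change of -0.72 ± 0.02 (edgeR adjusted p = 1.52e-13) that did not pass in the deposited table (-0.28).

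Serum response factor (SRF) controls many actin genes through a box of 10 bases. The windows below (RefSeq, GRCh38.p14, 250 bases before the start, 5′ to 3′) are those of the 4 members with such a box, in capitals. In CAPN2, a calpain protease that cuts cytoskeletal proteins, AP-1 matches are in capitals too.
ACTG1 (chr17:81512800-81513049, minus strand): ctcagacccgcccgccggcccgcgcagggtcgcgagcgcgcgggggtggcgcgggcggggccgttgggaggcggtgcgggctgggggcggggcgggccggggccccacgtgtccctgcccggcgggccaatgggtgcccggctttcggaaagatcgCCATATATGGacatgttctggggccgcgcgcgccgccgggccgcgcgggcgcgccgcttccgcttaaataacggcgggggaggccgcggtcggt
FLNA (chrX:154374635-154374884, minus strand): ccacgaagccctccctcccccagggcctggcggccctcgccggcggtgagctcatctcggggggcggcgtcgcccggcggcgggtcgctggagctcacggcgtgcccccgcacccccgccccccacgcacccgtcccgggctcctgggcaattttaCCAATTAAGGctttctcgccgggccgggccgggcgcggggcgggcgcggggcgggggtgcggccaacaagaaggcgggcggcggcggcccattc
TPM4 (chr19:16067288-16067537, plus strand): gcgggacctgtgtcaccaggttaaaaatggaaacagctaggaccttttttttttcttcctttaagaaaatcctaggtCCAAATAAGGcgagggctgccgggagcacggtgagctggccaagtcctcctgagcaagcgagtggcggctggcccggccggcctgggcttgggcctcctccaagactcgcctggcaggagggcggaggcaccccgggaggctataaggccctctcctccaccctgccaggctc
CAPN2 (chr1:223701347-223701596, plus strand): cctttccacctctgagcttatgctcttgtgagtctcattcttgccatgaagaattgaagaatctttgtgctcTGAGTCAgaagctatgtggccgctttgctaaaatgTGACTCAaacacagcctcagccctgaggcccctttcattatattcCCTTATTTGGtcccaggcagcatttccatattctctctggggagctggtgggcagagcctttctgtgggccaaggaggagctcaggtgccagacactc
The last base of the box lies 85 bases before the start in ACTG1, 85 in FLNA, 164 in TPM4 and 89 in CAPN2. All 4 were placed in the cytoskeletal role by the sorting by hand, a role that holds 25 of the 92 windows. The box occurs in 4 of 92 member windows, or 4.35% (exact binomial interval 1.2 to 10.8%), beside 1.03% of tested protein-coding genes and 1.29% of all promoters. In the 100 bases around the start it occurs in 0 of 92, beside 0.27% of tested protein-coding genes. CAPN2 had 335, 325 and 327 CPM at 24 h, 717, 724 and 737 CPM at 6 h, and 665, 666 and 675 CPM in control.

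Caveolae are built from caveolins and cavins. CAV1, the main caveolin outside muscle, had 227, 230 and 221 CPM at 24 h, 635, 635 and 663 CPM at 6 h, and 607, 608 and 591 CPM in control. CAV2, its partner, 16.46 kb away on chromosome 7, had 108, 101 and 95.5 CPM at 24 h, 264, 261 and 300 CPM at 6 h, and 243, 249 and 227 CPM in control. Both neighbours had all 24 h libraries below and all 6 h libraries above the controls. CAVIN1, the coat protein of caveolae, is outside the set with a 24 h ratio of 0.367 and a 6 h ratio of 0.769, and its 24 h log2 change was -1.45 ± 0.03 (edgeR adjusted p = 1.03e-14). CAVIN2 had 23.4, 25.6 and 25.4 CPM at 24 h, 32.9, 30.3 and 33.2 CPM at 6 h, and 22.1, 23.2 and 23.5 CPM in control. Its 24 h change of 0.11 ± 0.06 did not pass (edgeR adjusted p = 0.128), although it did with library sizes alone (0.19) and in the deposited table (0.53). CAVIN3 and EHD2, a caveolar ATPase, had 24 h ratios of 0.733 and 0.572 and passed as lower with TMM (log2 changes of -0.45 and -0.80), but not in the deposited table (-0.01 and -0.36).

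AHNAK, a giant scaffold protein under the plasma membrane, had 407, 390 and 383 CPM at 24 h, 1133, 1054 and 1361 CPM at 6 h, and 1332, 1298 and 1663 CPM in control. Library 3 was the highest of both the 6 h and the control group, and the 24 h group was far below each of them. NAV2, a microtubule-binding navigator protein, had 14.3, 12.9 and 13.7 CPM at 24 h, 45.4, 39.8 and 50.02 CPM at 6 h, and 41.8, 38.7 and 52.6 CPM in control, with library 3 again the highest of both. CORO2B, a coronin that binds actin, had 2.49, 2.67 and 2.09 CPM at 24 h, 8.83, 8.23 and 8.71 CPM at 6 h, and 10.1, 8.96 and 9.52 CPM in control, the lowest 24 h ratio of the cytoskeletal role at 0.253. VIM, the intermediate filament vimentin, had 1518, 1512 and 1576 CPM at 24 h, 3308, 3352 and 3296 CPM at 6 h, and 3133, 3136 and 3113 CPM in control. VIM-AS1 overlaps VIM on the opposite strand and had a 24 h ratio of 0.442, which unstranded counting could not separate from VIM itself.

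The tubulin genes TUBA1A, TUBA1C, TUBB2A and TUBB6 are members, with 24 h ratios of 0.515, 0.517, 0.528 and 0.458. TUBA1C had 665, 673 and 691 CPM at 24 h, 1414, 1430 and 1372 CPM at 6 h, and 1331, 1301 and 1292 CPM in control. Other tubulins, picked after values were seen, had 24 h ratios of 0.763 for TUBA1B, 0.701 for TUBB, 0.709 for TUBB4B and 0.432 for TUBB3. All 4 were called lower at 24 h with TMM (log2 changes of -0.39, -0.51, -0.50 and -1.2), but in the deposited table TUBA1B stood at 0.05 and TUBB and TUBB4B at -0.07 and -0.06, none of them called. TUBB3 had 11.3, 11.1 and 13.5 CPM at 24 h, 39.5, 46.9 and 39.9 CPM at 6 h, and 27.4, 26.8 and 28.9 CPM in control, and lies outside the set because its 6 h ratio was 1.520. Tubulin transcripts are close copies of each other, as are those of the actins, so the split of reads between them is uncertain.

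The mitotic members span entry into mitosis and its end. CCNB1, cyclin B1, had 176, 178 and 189 CPM at 24 h, 310, 312 and 311 CPM at 6 h, and 331, 322 and 325 CPM in control. CDC25B, a phosphatase that activates the cyclin B kinase, had 111, 111 and 112 CPM at 24 h, 256, 247 and 244 CPM at 6 h, and 238, 236 and 240 CPM in control. UBE2C and UBE2S, the ubiquitin-conjugating enzymes of the anaphase-promoting complex, had 24 h ratios of 0.517 and 0.558. UBE2C had 135, 138 and 136 CPM at 24 h, 242, 255 and 242 CPM at 6 h, and 266, 260 and 266 CPM in control. These 4 genes share a 24 h level near 0.5 of control, and CDC25B alone of them had its 6 h libraries above every control. KIF20A, a kinesin of cytokinesis (ratio 0.463), PSRC1, a spindle protein (0.482), and KNSTRN, a spindle and kinetochore protein (0.564), also belong to the group. The other CDC25 phosphatases, outside the set, did not follow CDC25B: CDC25A was higher at 24 h with a ratio of 1.17 (log2 change 0.22, edgeR adjusted p = 0.00014), and the change of CDC25C, -0.17, did not pass (edgeR adjusted p = 0.0581). KIF20A overlaps BRD8 and CDC23 on the opposite strand, with ratios of 0.795 and 1.09. PIMREG overlaps PITPNM3, which had a ratio of 0.360 against 0.516 for PIMREG itself.

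Set aside by the rule but within its limits, PLK1, the polo-like kinase of mitosis, had 161, 160 and 169 CPM at 24 h, 326, 326 and 317 CPM at 6 h, and 342, 347 and 335 CPM in control. CDC20, the activator of the anaphase-promoting complex, had a 24 h ratio of 0.493 and a 6 h ratio of 1.228. Of the genes outside the set, CDK1, the partner of cyclin B, had 161, 163 and 158 CPM at 24 h, 188, 190 and 206 CPM at 6 h, and 190, 193 and 181 CPM in control, a 24 h log2 change of -0.23 ± 0.04 (edgeR adjusted p = 0.000128) that was 0.21 in the deposited table and not called there. CCNB2, cyclin B2, had a ratio of 0.735 at 24 h, a change of -0.45 ± 0.04 (edgeR adjusted p = 3.06e-07) that was -0.0046 and not called in the deposited table.

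Many mitotic promoters carry CCAAT boxes and a cell cycle homology region (CHR). The windows of CCNB1, of PRR11 and of KPNA2 are shown (RefSeq, GRCh38.p14, 250 bases before the start, 5′ to 3′), with CCAAT and TTTGAA, on either strand, in capitals. PRR11 is a gene linked to mitotic progression, and KPNA2 encodes an importin that carries proteins into the nucleus.
CCNB1 (chr5:69166900-69167149, plus strand): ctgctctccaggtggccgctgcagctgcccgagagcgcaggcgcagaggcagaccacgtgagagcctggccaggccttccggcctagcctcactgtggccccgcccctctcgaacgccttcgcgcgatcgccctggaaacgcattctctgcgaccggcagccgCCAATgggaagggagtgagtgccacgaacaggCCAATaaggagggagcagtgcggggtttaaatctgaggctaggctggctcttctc
PRR11 (chr17:59155496-59155745, plus strand): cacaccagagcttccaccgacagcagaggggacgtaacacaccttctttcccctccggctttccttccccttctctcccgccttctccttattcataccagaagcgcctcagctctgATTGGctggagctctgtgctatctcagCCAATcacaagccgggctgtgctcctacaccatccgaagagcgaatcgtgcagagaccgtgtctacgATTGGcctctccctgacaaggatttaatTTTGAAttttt
KPNA2 (chr17:68035485-68035734, plus strand): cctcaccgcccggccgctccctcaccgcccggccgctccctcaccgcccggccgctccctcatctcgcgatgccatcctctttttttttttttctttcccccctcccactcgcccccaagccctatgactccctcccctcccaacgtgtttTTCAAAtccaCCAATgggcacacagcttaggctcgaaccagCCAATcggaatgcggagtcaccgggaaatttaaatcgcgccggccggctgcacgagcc
The CCNB1 window shows 2 CCAAT boxes, with last bases 83 and 51 bases before the start. The KPNA2 window shows 2 as well, with last bases 85 and 54 bases before the start, and PRR11 shows 3. Of the 10 mitotic members with a sequence, 8 hold CCAAT and 4 hold TTTGAA in the full window. Over all 92 members CCAAT was in 29.3% of windows, beside 36.9% of tested protein-coding genes and 34.6% of all promoters. TTTGAA was in 13%, beside 9.63% and 15.2%.

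Of 64 tested genes on a mitosis list, 61 passed as lower at 24 h (edgeR) and 1 as higher, with a median log2 change of -0.48 beside 0.00 for all genes. Of the 58 that are no members, 55 were lower. Both counts include PLK1 and CDC20, which were set aside although they met the rule's limits. TOP2A, the topoisomerase that untangles chromosomes, was also among the 55. It had 452, 461 and 461 CPM at 24 h, 728, 717 and 751 CPM at 6 h, and 789, 791 and 787 CPM in control. Its change did not pass in the deposited table (-0.34). In the deposited table there were 8 lower of the 64 and 2 higher, with a median of -0.04, which is 0.41 below the median gene there. The genes of DNA replication and the G1 to S step took the other direction. Of 54 tested, 42 passed as higher at 24 h and 3 as lower, with a median of 0.44, and none is a member. CCNE2, cyclin E2, had 27.9, 28.4 and 28.4 CPM at 24 h, 12.5, 10.9 and 11.5 CPM at 6 h, and 13.5, 13.6 and 10.95 CPM in control. PRIM1, the small primase subunit, had a 24 h ratio of 1.937 and a 6 h ratio of 0.914. With the deposited values, 49 of the 54 were higher and 0 lower.

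In the signalling group, CCND1, cyclin D1, which drives G1, had 293, 291 and 296 CPM at 24 h, 590, 585 and 610 CPM at 6 h, and 514, 510 and 539 CPM in control. ANO1, a calcium-activated chloride channel 423.8 kb away on chromosome 11, had 3.60, 3.56 and 3.72 CPM at 24 h, 15.2, 16.8 and 18.0 CPM at 6 h, and 18.8, 16.8 and 17.02 CPM in control. These neighbours differ in size of change, with ratios of 0.563 and 0.207, and only CCND1 was above control in all 6 h libraries. CCND3, cyclin D3, outside the set, had 134, 134 and 138.5 CPM at 24 h, 204, 209 and 185 CPM at 6 h, and 122, 125 and 123 CPM in control. It was higher than control at 24 h (log2 change 0.14, edgeR adjusted p = 0.0132) and at 6 h (0.69, edgeR adjusted p = 2.76e-09). TNFRSF6B, a decoy receptor for death ligands, had 5.74, 5.07 and 7.57 CPM at 24 h, 37.4, 36.5 and 27.9 CPM at 6 h, and 26.5, 30.4 and 33.1 CPM in control, the lowest 24 h ratio of all members at 0.204. It overlaps ARFRP1 and the readthrough gene RTEL1-TNFRSF6B, whose ratios were 0.704 and 0.774, so its counts may be split. TNFRSF12A, the receptor of the cytokine TWEAK, had 172, 177 and 180 CPM at 24 h, 370, 392 and 367 CPM at 6 h, and 378, 378 and 396 CPM in control.

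PHLDA1 and PHLDA2, pleckstrin homology proteins, had 24 h ratios of 0.524 and 0.513. PHLDA3, outside the set at a control mean under the limit, had a 24 h ratio of 0.363 and a 6 h ratio of 0.513, and passed as lower at 24 h (log2 change -1.52, edgeR adjusted p = 0.000393). S100P, a calcium-binding protein found in pancreatic tumours, had 2.93, 2.82 and 2.88 CPM at 24 h, 11.4, 11.6 and 9.24 CPM at 6 h, and 9.65, 8.96 and 8.998 CPM in control. MAP4K4, a kinase upstream of JNK, had a ratio of 0.492, IGFBP1, which binds insulin-like growth factors, 0.510, and RASSF10 0.402.

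Among transcription factors, ETS1, which is a target of growth factor signalling, had 55.7, 54.9 and 48.5 CPM at 24 h, 181, 182 and 191 CPM at 6 h, and 154, 164 and 155 CPM in control, above every control at 6 h and at 0.336 of control at 24 h. HMGA2, a chromatin protein that bends DNA, had 122, 125 and 122 CPM at 24 h, 223, 219 and 237 CPM at 6 h, and 217, 226 and 217 CPM in control. HMGA1, its relative outside the set, had a 24 h ratio of 0.661 and a 6 h ratio of 1.156, a 24 h log2 change of -0.60 ± 0.03 (edgeR adjusted p = 2.19e-10) that did not pass in the deposited table (-0.16). GLI2, a transcription factor of the Hedgehog pathway, had 13.4, 13.4 and 13.5 CPM at 24 h, 26.4, 26.4 and 25.6 CPM at 6 h, and 25.1, 24.9 and 27.6 CPM in control. CITED4, a cofactor of CBP and p300, varied more, with 4.83, 4.33 and 4.94 CPM at 24 h, 14.4, 12.6 and 9.82 CPM at 6 h, and 11.5, 12.8 and 13.6 CPM in control. PRDM8, a PR-domain protein 58.42 kb from ANTXR2 on chromosome 4, had a ratio of 0.280.

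Surface proteins included CD59, which blocks the membrane attack complex of complement. It had 357, 362 and 357 CPM at 24 h, 712, 719 and 709 CPM at 6 h, and 651, 650 and 646 CPM in control, above control at 6 h and below it at 24 h without overlap. ROR1, a receptor of the tyrosine kinase-like family, had 2.72, 2.63 and 2.77 CPM at 24 h, 8.31, 6.05 and 6.19 CPM at 6 h, and 7.73, 8.005 and 9.32 CPM in control. IL7R, the interleukin 7 receptor alpha chain, had a ratio of 0.558, SLC39A10, a zinc importer, 0.440, and PLXNA3, a semaphorin receptor 83.64 kb from FLNA on the X chromosome, 0.514.

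Metabolic members include MAOB, a monoamine oxidase, with 22.1, 22.7 and 20.6 CPM at 24 h, 48.7, 54.0 and 48.7 CPM at 6 h, and 48.1, 47.2 and 48.0 CPM in control. MAOA, the other monoamine oxidase, went the opposite way at 24 h, with 8.57, 8.33 and 8.20 CPM at 24 h, 3.31, 3.19 and 3.89 CPM at 6 h, and 5.04, 5.19 and 4.04 CPM in control. Its 24 h log2 change was 0.81 ± 0.11 (edgeR adjusted p = 2.64e-05), its 6 h change -0.44 (edgeR adjusted p = 0.0166). CDA, the cytidine deaminase that inactivates gemcitabine, had 13.5, 12.9 and 13.5 CPM at 24 h, 19.9, 21.3 and 19.5 CPM at 6 h, and 24.0, 22.9 and 24.3 CPM in control, already below every control at 6 h. BCAT1, which transaminates branched-chain amino acids, had a ratio of 0.519, and SGMS2, which makes sphingomyelin, one of 0.517.

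A few members carry uncertain counts. FAM72D has near-identical copies, with 24 h means of 4.90 CPM against 11.3 CPM in control, while FAM72A, FAM72B and FAM72C had 11.6, 13.4 and 10.8 CPM at 24 h against 15.3, 20.7 and 16.9 CPM in control. MTRNR2L3 resembles mitochondrial ribosomal RNA and had 13.5 CPM at 24 h, 26.3 CPM at 6 h and 24.2 CPM in control, beside 8558, 16084 and 14383 CPM for MT-RNR2 at the same times. DGCR6 overlaps PRODH, also a member, and has a close copy, DGCR6L. Of the 117 members 33 overlap another tested gene and 84 none, a share that was not computed over all genes tested.

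Members lie on 23 chromosomes with at most 12 on 1 of them, and 26 members form 13 pairs within 1 Mb. The share of all genes tested in such pairs was not computed, so the count is no trait of the set. C11orf68 and DRAP1, a transcriptional corepressor subunit, start 0.211 kb apart in opposite directions on chromosome 11, with 24 h ratios of 0.539 and 0.529 and 6 h ratios of 0.882 and 1.140. FOSL1, an AP-1 subunit set aside by the rule, lies 16.24 kb from C11orf68 and had 315, 301 and 307 CPM at 24 h, 1028, 1059 and 1003 CPM at 6 h, and 1028, 1053 and 1054 CPM in control. The exons of a member cover a median of 4902 bases, beside 5082 bases for other tested protein-coding genes. The interferon-stimulated response element was in 0 of 92 member windows (exact binomial upper bound 3.93%), beside 2.91% of tested genes and 3.57% of all promoters. Other motifs were searched too, given here for member windows beside tested genes. ETS was in 7.61% beside 19.7%, E-box in 4.35% beside 10.2%, and GC box in 63% beside 70.5%. E2F was in 14.1% beside 15.2%, and CRE in 2.17% beside 3.25%. TATA box was in 10.9% beside 5.52%, and TEAD in 10.9% of both. None of these shares was tested.

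Most members, 91 of 117, are on none of 17 pathway lists, and 26 are on at least 1. The matching share over all genes tested was not computed. On the matrix, protease and adhesion list 7 of 58 tested genes are members. Of the other 51, 31 passed as lower at 24 h and 14 as higher. The 31 include TNC, which met the rule's limits and was set aside. Among the lower was MMP1, the interstitial collagenase, with 327, 330 and 334 CPM at 24 h, 1255, 1315 and 1317 CPM at 6 h, and 975, 997 and 978 CPM in control. Among the higher was MMP13, the largest change of the 51, with a log2 change of 3.66 at 24 h (edgeR adjusted p = 8.22e-10). Its means were 4.42 CPM at 24 h, 11.3 CPM at 6 h and 0.353 CPM in control, the last resting on few reads. On the actin and SRF list, 32 of 43 other genes were lower and 1 higher. On the ERK and AP-1 list 26 of 48 others were lower and 9 higher. The 26 include FOSL1 and TMEM158, likewise set aside. On the YAP and TEAD list 21 of 35 were lower and 5 higher. The nucleolar and ribosome biogenesis list holds no member, and 34 of its 38 genes were lower and 2 higher. These counts differed in the deposited table, where the scaling was another and the test was limma in place of edgeR. With members included, the deposited values gave 16 lower and 18 higher of 58 matrix genes, 4 lower and 7 higher of 47 actin genes, and 13 lower and 18 higher of 53 ERK genes. They gave 2 lower and 9 higher of 36 YAP genes, 0 lower and 2 higher of 38 nucleolar genes, and 321 lower and 8575 higher over all genes tested. Of the nucleolar genes, RRS1, a ribosome assembly factor, had 65.4, 63.8 and 65.5 CPM at 24 h, 118, 125 and 122 CPM at 6 h, and 113, 105 and 112 CPM in control, a change that did not pass in the deposited table (-0.32). Over all genes outside the set, with the 5 genes set aside included, 4167 were lower and 4191 higher with TMM. With every listed gene counted, the median log2 changes were -0.36 for matrix, -0.22 for actin, -0.30 for ERK, -0.26 for YAP and -0.34 for nucleolar genes with TMM, and in the deposited table they were 0.08, 0.22, 0.13, 0.17 and 0.10, all below the median gene there by 0.15 to 0.29.

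**Figure D4:**
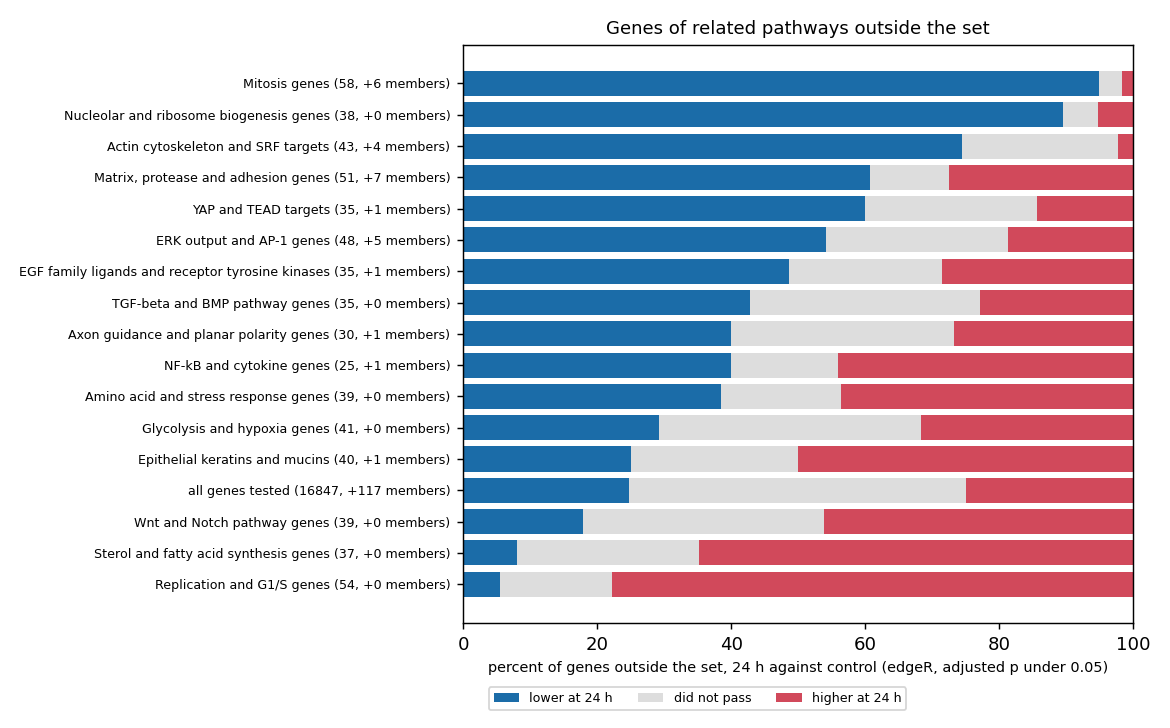
Percent of the genes on each pathway list that are no members and passed as lower (blue), did not pass (grey) or passed as higher (red) at 24 h against control (edgeR, TMM), with the number of such genes and of members in brackets. Mitosis and nucleolar lists are mostly blue and the replication and G1/S list mostly red, while the row of all genes tested is even. Genes that met the rule's limits but were set aside are counted with those that are no members. The antiviral list, with 43 of 43 genes higher and no member, is not drawn.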

How the data were processed

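RNA from SUIT2 cells was sequenced in 9 libraries, 3 per group. The authors deposited estimated counts per gene, and separately a TMM-normalized signal table made after adding a small constant to each count, per the file headers and names. STAR 2.7.8a, Partek and hg38 are named in the submitters' processing notes, without their roles. No source used here gives the annotation release or the strand setting.

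Estimated counts were rounded to whole numbers. Genes were kept with filterByExpr by group (minimum count 10, minimum total 15), and 16964 of 59609 remained. One edgeR 4.0.16 quasi-likelihood fit with TMM over all 9 libraries (R 4.3.3, 6 residual degrees of freedom) gave the 3 contrasts, with Benjamini-Hochberg adjustment over all genes and a threshold of 0.05. The design assumed raw counts, and the files hold estimated ones. The steps were tested on simulated data. The members and lists were chosen with earlier results of these data known. Named genes were the members with the lowest 24 h ratios, the highest control levels, the extreme 6 h ratios, those nearest each limit, on a pathway list or near another member, plus up to 3 others per list by largest change. Partners in complexes and families were chosen after values were seen. Alternatives used DESeq2 1.42.0 and limma 3.58.1. Every call given for the deposited table is limma's, so it differs from the TMM calls in test as well as scaling. Depth was 15101734 to 40384407 estimated counts, and levels of a few CPM rest on few reads. Promoters came from RefSeq (GRCh38.p14), with 25 members unmatched. Some genes are not reported here.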

Additional observations from a re-analysis of the deposited data

Results flagged for a closer look

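Members were chosen for a gap between 24 h and 6 h, so they are not listed here. Of the named genes outside the set, picked by the rule for named genes or by hand as partners, those below had effects at 24 h and 6 h that differed by edgeR's test of 24 h against 6 h, which 57.2% of all genes passed. Their number says nothing beyond that choice. The log2 change, 24 h over 6 h, was -1.97 for MMP1, -1.81 for TUBB3, -1.34 for LAMB3 and -1.33 for MMP13. It was -1.17 for PLAU, -1.13 for COL17A1 and -1.06 for CAVIN1. It was -0.91 for RRS1, -0.81 for ACTB, -0.81 for HMGA1, -0.77 for ITGA6, -0.68 for TOP2A, -0.65 for EHD2, -0.61 for TUBB4B, -0.55 for CCND3, -0.52 for TUBB and -0.47 for TUBA1B. It was -0.44 for CAVIN3, -0.38 for DST, -0.38 for CAVIN2, -0.33 for CCNB2, -0.28 for CDK1 and -0.20 for FERMT2. It was 0.13 for CDC25A, 1.07 for PRIM1, 1.25 for MAOA and 1.29 for CCNE2. The difference did not pass for CDC25C (-0.05, edgeR adjusted p = 0.573) or PHLDA3 (-0.53, edgeR adjusted p = 0.15). Values are with TMM, and between the times 53.4% of all calls were lower with TMM, 23.1% with library sizes alone and 16.7% in the deposited table.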

How the results depend on the processing

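The number of members depended on the limits: 64 genes met the rule with a 24 h ratio of at most 0.5, 258 with one of at most 0.65, and 72 with a 6 h window from 0.9 to 1.11. With the authors' deposited normalized values, 30 genes met it, 20 of them members. Other scalings and filters gave 80 (library sizes alone, 75 of them members) to 115 genes, and leaving out 1 library at a time gave 109 to 122. The count of genes called at 24 h against control was 8475, and 7497 to 8981 without 1 library. It was 5576 at 6 h, and 4722 to 5489 without 1 library, and 9704 between the times, and 8847 to 9739 without 1 library. With limma on the deposited values 1826 genes (pseudocount 1) and 1854 (pseudocount 0.1) were called at 6 h, and 5849 and 5636 between the times. The cause was not tested. DESeq2 called 7084 genes at 24 h. Over 48 named members and 13 settings each, 0 of 624 refits turned the sign, and 42 moved by more than 1 SD, 35 of them with library sizes alone. The refits were of the 24 h change from control, on which the rule picked these members. The lack of turned signs was therefore close to fixed and is no test. Deviations of libraries with the same number had correlations from -0.06 to 0.02, beside up to 0.07 for libraries with different numbers. That gave no sign of pairing by number, but it cannot exclude a shared culture or batch. With a replicate block 8133, 5149 and 9393 genes were called at 24 h, at 6 h and between the times, and 115 members met the rule.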
